A study of Caenorhabditis elegans with 3 samples.

Results

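The apical extracellular matrix and molting genes examined here were 55 of the 19973 protein-coding genes on the 6 nuclear chromosomes of the nematode Caenorhabditis elegans. They comprised every protein-coding gene named cut-, cutl- or lpr-, together with mlt-8, mlt-9, mlt-10, mlt-11, nas-36, nas-37, noah-1, noah-2, fbn-1, let-653, let-4, sym-1 and dpy-6, and the rule used no binding value. By the kind of protein, 39 encoded cuticlins and related zona pellucida (ZP) domain proteins (6 cut- genes, 29 cutl- genes, noah-1, noah-2, fbn-1 and let-653) and 7 encoded lipocalin-related proteins. The others were the leucine-rich repeat genes let-4 and sym-1, the mucin-like gene dpy-6, 4 mlt- genes and the astacin metalloprotease genes nas-36 and nas-37.

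The animals were whole L1 larvae, described as males and females pooled, of the strain OP75, with the genotype unc-119(ed3) III; wgIs75. This line carries a transgene for the GATA-type transcription factor ELT-3 with GFP and FLAG fused to its C-terminal end, so that the tagged copy was the protein profiled. The promoter that drives the transgene and the state of the endogenous elt-3 gene were not given in the sources used here. Chromatin immunoprecipitation followed by sequencing (ChIP-seq) gave 3 libraries in 1 group, with 2 biological replicates, of which replicate 1 had 2 technical libraries read together in 1 alignment. There was no other condition, and all comparisons below are between genes or between replicates, without a test.

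Binding was read from 4 peak lists on the ce11 build, which is the WBcel235 assembly. The list thresholded on reproducibility between the replicates held 4530 peaks with a signal of 35.2 to 382, in the peak caller's own units, and is called the thresholded list. The relaxed lists, which include weak peaks and background, held 26508 peaks for the pooled replicates, 30000 for replicate 1 and 27330 for replicate 2. The thresholded list consisted of the 4530 strongest pooled peaks. Its lowest signal was 35.1944, and the highest pooled signal outside it was 35.1885. A thresholded peak therefore need not have a peak in each replicate, and 166 of the 4530 had no overlapping replicate 2 peak. Signals were set against one another only within a list, and between lists only ranks were compared, with rank 1 the strongest. Read depth is unknown from peak lists, so the absence of a peak says only that none was listed. Because whole larvae were used, strong binding in few cells and weak binding in many cells cannot be told apart.

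The outer surface of a nematode is covered by a cuticle that the epidermis secretes anew for each larval stage. Before the cuticle of the next stage is laid down, and in the embryo before the first one, epidermal and tubular epithelia secrete a transient apical matrix, the precuticle, which contains ZP-domain, leucine-rich repeat and lipocalin proteins and gives shape to the body and to narrow tubes. At the molt the old cuticle is loosened and shed with the help of secreted proteases and their inhibitors. ELT-3 is a GATA factor of the larval epidermis, and factors of this class recognise WGATAR, where W stands for an A or T base and R for either purine.

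A gene was counted as bound where the summit of a thresholded peak lay from 1000 bp before to 200 bp after any of its annotated transcript starts. Many C. elegans messages are trans-spliced, so an annotated start can lie downstream of where transcription begins. By this measure 5 of the 55 genes were bound (9.09%), whereas 15.5% of all protein-coding genes were. The 5 were dpy-6, lpr-3, lpr-4, sym-1 and noah-1. The windows of 201 bases around the summits of 4 of them are printed because they are the DNA at which ELT-3 was placed at dpy-6, lpr-3, lpr-4 and sym-1, and that of cut-6 because its summit lay just under the threshold. Each reads 5′ to 3′ on the strand of the gene, 100 bases to each side of the summit, with the 6 letters of each WGATAR match in capitals. The letters searched were AGATAA or AGATAG, together with TGATAA or else TGATAG, on both strands, so that the reverse of TGATAA, for example, appears as TTATCA. The windows were chrX:8455899-8456099 for dpy-6, chrX:11057206-11057406 for lpr-3, chrX:11064891-11065091 for lpr-4, chrX:14580987-14581187 for sym-1 and chrIII:10911123-10911323 for cut-6, with dpy-6 on the minus strand and the others on the plus strand.
dpy-6: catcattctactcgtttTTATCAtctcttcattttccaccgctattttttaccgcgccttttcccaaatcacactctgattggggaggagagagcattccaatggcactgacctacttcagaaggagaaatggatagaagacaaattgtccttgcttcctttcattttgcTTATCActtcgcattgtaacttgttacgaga
lpr-3: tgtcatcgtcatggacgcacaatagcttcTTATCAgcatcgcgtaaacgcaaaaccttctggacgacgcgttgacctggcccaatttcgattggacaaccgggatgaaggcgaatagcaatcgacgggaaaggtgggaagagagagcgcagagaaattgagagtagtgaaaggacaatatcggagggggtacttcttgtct
lpr-4: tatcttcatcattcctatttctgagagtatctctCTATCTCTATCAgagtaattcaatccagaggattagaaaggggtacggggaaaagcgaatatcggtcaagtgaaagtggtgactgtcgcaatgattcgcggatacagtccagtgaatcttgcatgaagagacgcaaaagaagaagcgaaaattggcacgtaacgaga
sym-1: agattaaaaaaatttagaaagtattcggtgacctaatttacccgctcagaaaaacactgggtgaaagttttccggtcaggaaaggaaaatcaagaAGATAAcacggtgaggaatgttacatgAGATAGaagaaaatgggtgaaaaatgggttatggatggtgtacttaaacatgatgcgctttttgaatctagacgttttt
cut-6: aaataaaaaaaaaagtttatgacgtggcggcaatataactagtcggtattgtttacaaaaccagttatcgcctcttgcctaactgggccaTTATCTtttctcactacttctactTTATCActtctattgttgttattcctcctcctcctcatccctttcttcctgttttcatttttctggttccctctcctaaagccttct

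In these windows the matches of dpy-6, lpr-3 and lpr-4 stood away from the middle, while those of sym-1 and cut-6 stood at or near it. The 2 matches in the dpy-6 window were both TTATCA, and the nearer lay 70 bp from the summit. The single match at lpr-3 was 66 bp away, and the nearer of the 2 matches at lpr-4, which adjoin each other, was 55 bp away. At sym-1 an AGATAA lay over the summit, at 0 bp. At cut-6 the nearer of 2 matches was 5 bp from the summit.

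The mucin-like gene dpy-6 (WBGene00001068), whose loss gives short, fat animals, held the strongest of the 5 promoter peaks. Its peak had a signal of 102, rank 753 of the thresholded list, with the summit 359 bp before the start and outside any protein-coding gene. The overlapping replicate 1 peak had a signal of 73.3, rank 394 of that list, and the overlapping replicate 2 peak a signal of 14.6, rank 5824. The peak was thus among the strongest 1.31% of replicate 1 and at 21.3% from the top in replicate 2.

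Of the 7 lipocalin-related genes, whose products are secreted proteins of the kind that bind lipophilic cargo, lpr-3 and lpr-4 were bound. Their share was 28.6%, against 15.5% of all protein-coding genes, and both lie in the same gene cluster. LPR-3 is a precuticle protein, and LPR-1 is required to keep the narrow excretory duct and pore tubes intact. At lpr-3 (WBGene00012261) the summit lay 95 bp before the start with a signal of 65.2, rank 1996, and the replicate 1 peak there had a signal of 58.5, rank 786. The replicate 2 peak that overlapped it had a signal of 6.99, rank 21077, and its summit was 268 bp away from the pooled summit. At lpr-4 (WBGene00012257) the summit lay 135 bp before the start with a signal of 36.2, rank 4407, and the replicate 1 peak had a signal of 44.4, rank 1491. No replicate 2 peak overlapped it. The lpr-4 promoter did hold a replicate 2 summit, but 734 bp before the start and within the neighbouring gene lpr-5, with a signal of 7.30. Both lpr peaks were therefore high in replicate 1 and low or missing at the same place in replicate 2.

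These genes are neighbours: lpr-3, lpr-6, lpr-5 and lpr-4 lie in this order on the plus strand within 9411 bp of the X chromosome. From 1500 bp before the lpr-3 start to the end of lpr-4 there were 7 pooled peaks, 10 replicate 1 peaks and 5 replicate 2 peaks. Between the thresholded peaks at the lpr-3 and lpr-4 starts, lpr-6 had a promoter summit of signal 24.3 at 111 bp before its start, and lpr-5 a summit of signal 15.7 at 69 bp after its start. The highest pooled peak between them was not in a promoter as counted here. It had a signal of 31.3, rank 5122, and lay in an intron of lpr-6, 3700 bp after the lpr-3 start. Because lpr-5 starts 4722 bp after the lpr-3 start, this summit lay just beyond the lpr-5 promoter of 1000 bp. Replicate 1 had a peak there of signal 38.4, rank 1946, and no replicate 2 peak overlapped it. Of the 3 lipocalin genes elsewhere, lpr-7 had a pooled summit of signal 11.2, lpr-1 had a summit in the replicate 1 list alone, of signal 8.67, and lpr-2 had none in any list.

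**Figure D1:**
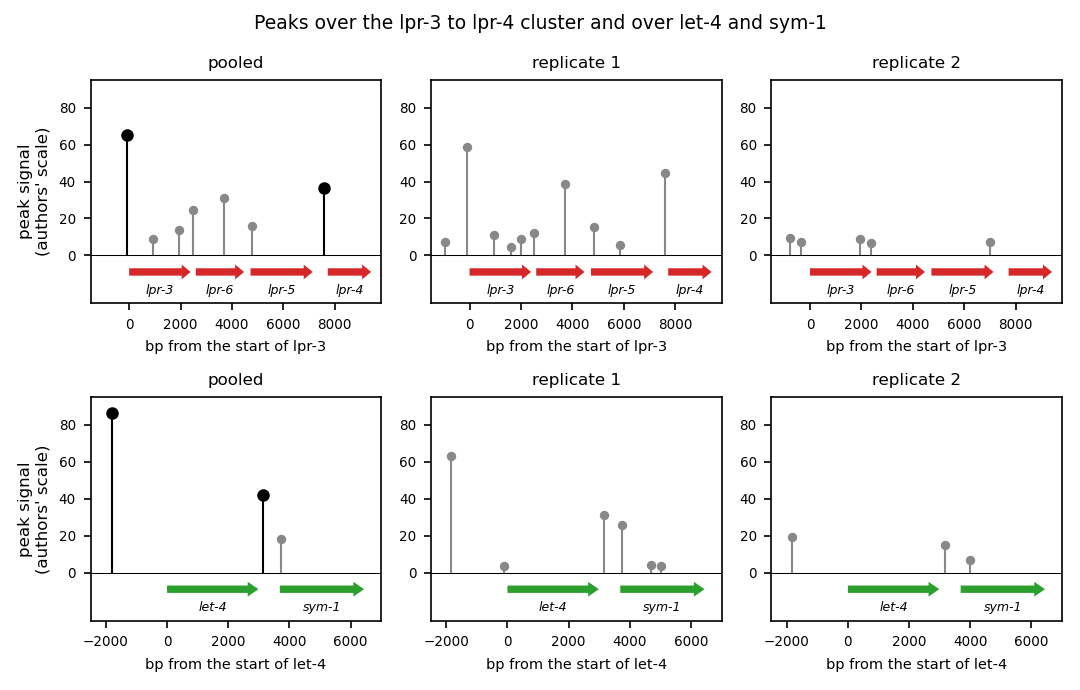
Peak summits along the lpr gene cluster (upper panels) and the let-4 and sym-1 locus (lower panels). The horizontal axis is the distance in bp from the start of lpr-3 or let-4, the vertical axis is the deposited signal, columns are the pooled, replicate 1 and replicate 2 lists, arrows are genes and black points are thresholded summits. The thresholded summits stand 95 bp before lpr-3, 135 bp before lpr-4, 535 bp before sym-1 and 1802 bp before let-4.

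The leucine-rich repeat genes let-4 and sym-1 encode extracellular proteins of the embryonic epidermal matrix, and both lie, with 6444 bp from the start of let-4 to the end of sym-1, inside the gene C44H4.4, which runs on the opposite strand. At sym-1 (WBGene00006366) the summit lay 535 bp before the start, in an intron of C44H4.4, with a signal of 41.9, rank 3737. The overlapping replicate 1 peak had a signal of 31.3, rank 2704, and the replicate 2 peak a signal of 15.2, rank 5483, with summits 8 and 12 bp from the pooled one. A further pooled summit 26 bp after the sym-1 start had a signal of 18.4. The summit nearest let-4 was stronger than that of sym-1, at 86.6, rank 1136, but lay 1802 bp before the let-4 start and so outside its promoter as counted here. It had overlapping peaks in replicate 1, with a signal of 63.2, rank 623, and in replicate 2, with a signal of 19.5, rank 3904. In the let-4 promoter itself only replicate 1 had a summit, of signal 3.57. At the peak 1802 bp before let-4, the replicate summits also lay in a UTR exon of lron-1. Which of let-4, sym-1, C44H4.4 and lron-1 these peaks relate to cannot be told from position.

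Of the 39 cuticlin and ZP-domain genes 1 was bound, noah-1 (2.56%), and of the 35 cut- and cutl- genes 0 were bound. The share of all protein-coding genes was 15.5%. NOAH-1 and NOAH-2, related to Drosophila NompA, are ZP proteins of the embryonic sheath and of attachments between epidermis and cuticle. At noah-1 (WBGene00016422) the pooled summit lay 694 bp before a start with a signal of 41.5, rank 3776. The overlapping replicate 1 peak had a signal of 34.3, rank 2339, with its summit 99 bp from the pooled one, and no replicate 2 peak overlapped it. The pooled summit had no WGATAR within 50 bp and 1 at 54 bp. The noah-2 promoter held no pooled summit, and a thresholded summit of signal 39.6 lay 1367 bp before its start. That peak matched a replicate 1 peak of signal 45.3, rank 1427, and again no replicate 2 peak overlapped it.

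The 5 promoter peaks had a median signal of 41.9, with a range of 36.2 to 102, while the strongest promoter peaks of all 3092 bound genes had a median of 63.3. Just inside the threshold stood lpr-4 at 36.2, and just outside it cut-6 at 34.7. The weakest peak kept had a signal of 35.2. The cuticlin cut-6, a ZP protein needed for the shape of the dauer body, ranked 4592 in the pooled list, with its summit 237 bp before the start. Its replicate order was the opposite of that at the bound genes, with a signal of 11.7, rank 7613, in replicate 1 and of 21.7, rank 3391, in replicate 2.

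In the pooled relaxed list 20 of the 55 genes had a promoter summit (36.4%), against 41.9% of all protein-coding genes. The replicate 1 list gave 23 genes (41.8%, against 43.6%), and the replicate 2 list 20 genes (36.4%, against 41.6%). Each of these shares was close to or below the background. By kind, the pooled list marked 11 of 39 cuticlin and ZP genes (28.2%), 5 of 7 lipocalin genes, 1 of 4 mlt- genes and 1 of 2 nas- genes. Within the first kind it marked 2 of 6 cut- genes and 7 of 29 cutl- genes.

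**Figure D2:**
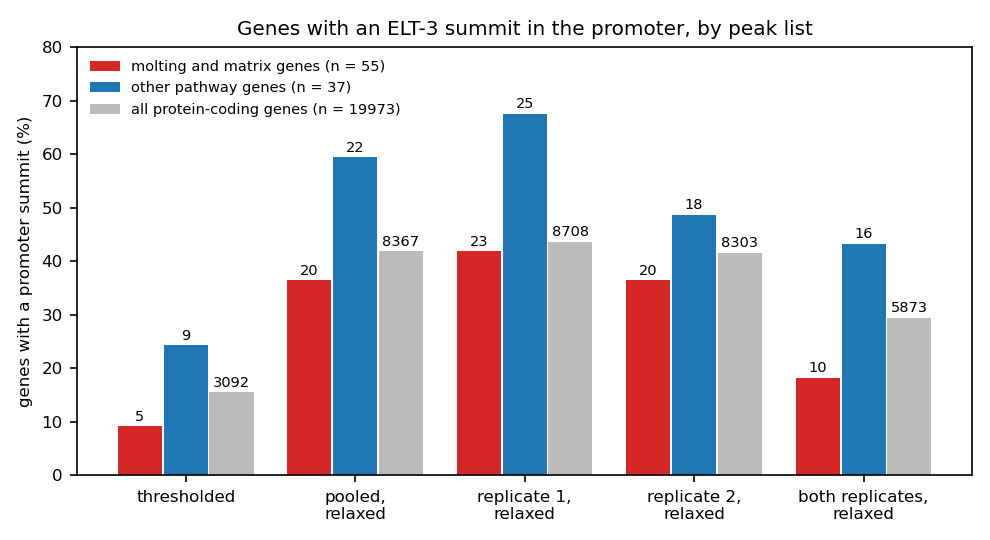
Share of genes with a promoter summit, in percent, in the thresholded list, in each relaxed list and in the relaxed lists of both replicates, for the 55 molting and matrix genes, the 37 other pathway genes and all protein-coding genes, with the number of genes above each bar. In the thresholded list the shares are 9.09%, 24.3% and 15.5%.

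Below the threshold 15 genes had a pooled promoter summit, with signals from 8.70 to 34.7 and a median of 13.2. After cut-6 the highest was cutl-1, a cuticlin-like gene, at 29.0, rank 5508 and 661 bp before its start. This summit was also in the promoter of F53F1.2. Replicate 1 had a peak there of signal 25.8, rank 3489, and replicate 2 had none. The next were lpr-6, at 24.3 with replicate peaks of 12.1 and 6.88, and the cuticlin-like gene cutl-23, at 22.2 with replicate peaks of 9.81 and 10.5. The fifth was mlt-9, at 18.1 and 694 bp before its start, with a replicate 1 peak of signal 16.0, rank 5683, and no replicate 2 peak. The mlt- genes were named for larvae that fail to shed the old cuticle. The ZP gene let-653, whose mucin-like product shapes narrow tubes such as the excretory duct, followed with a signal of 15.7.

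Both nas- genes encode astacin proteases that act when the old cuticle is shed, and neither was bound. The nas-36 promoter had a pooled summit of signal 13.2, present in replicate 2 and not in replicate 1, and the nas-37 promoter had a summit in replicate 1 alone, of signal 7.95. The protease inhibitor gene mlt-11 had a summit in replicate 1 alone, of signal 4.07. No promoter summit was listed in any of the 4 lists for 22 of the 55 genes. These included mlt-8, mlt-10, the fibrillin-like gene fbn-1, lpr-2, cut-2 and cut-3, and the other 16 were cutl- genes.

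**Figure D3:**
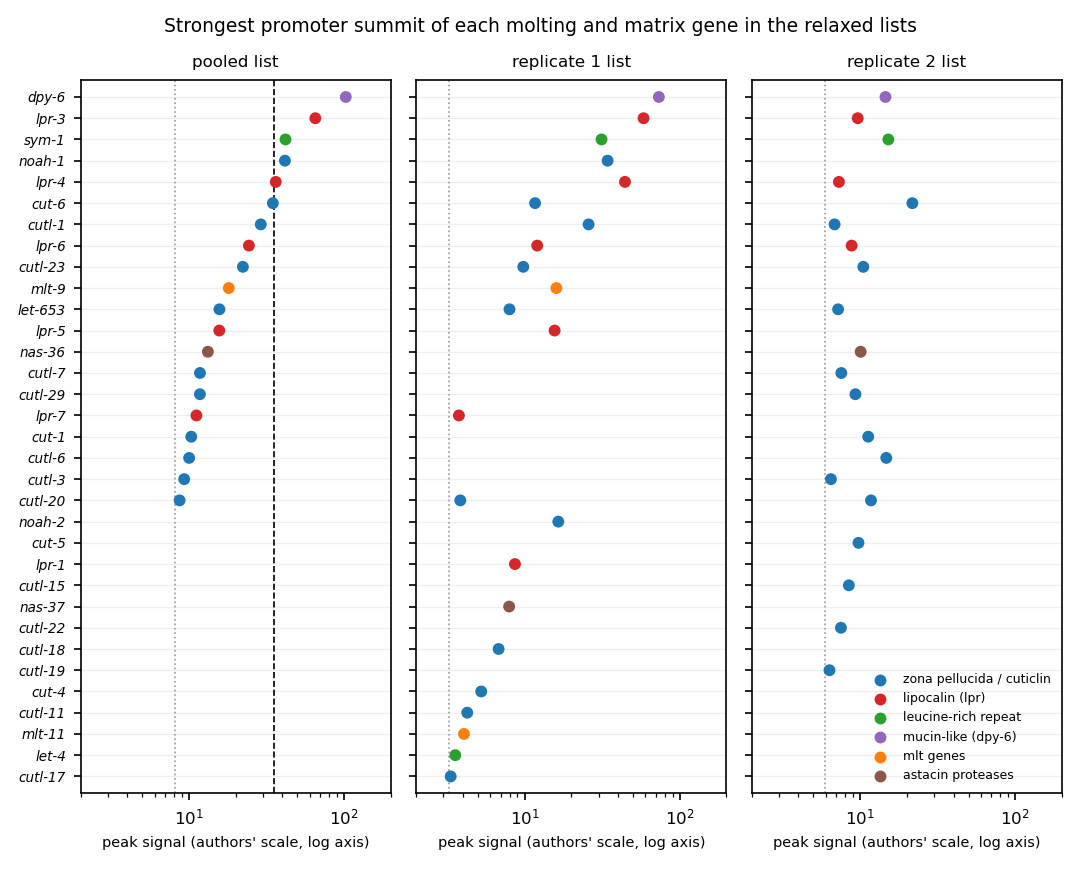
Signal of the strongest promoter summit of each gene with at least 1 promoter summit, on a log axis in the deposited units, for the pooled, replicate 1 and replicate 2 lists. Colours give the kind of gene, dotted lines the lowest signal of each list and the dashed line the lowest signal of the thresholded list, 35.2, above which lie dpy-6, lpr-3, sym-1, noah-1 and lpr-4.

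Promoter summits in the relaxed lists of both replicates were found for 10 genes (18.2%), against 29.4% of all protein-coding genes. These were cut-6, cutl-1, cutl-20, cutl-23, dpy-6, let-653, lpr-3, lpr-4, lpr-6 and sym-1. In 8 of them (14.5% of the 55, against 25.8% of all genes) a peak of replicate 1 overlapped a peak of replicate 2 by at least 1 bp, and lpr-4 and cutl-20 were the exceptions. A summit in replicate 1 alone was found for 13 genes (23.6%, against 14.2% of all genes). For 10 genes it was in replicate 2 alone (18.2%, against 12.2%). The shares with a summit in a single replicate were thus above those of all genes. Neither list marked the remaining 22, a share below the 44.2% of all genes.

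The replicates differed in how strongly they backed the bound genes. All 5 thresholded promoter peaks overlapped a peak among the strongest 4530 of replicate 1, and 0 did so in replicate 2, whereas over all 4530 thresholded peaks the shares were 82.8% and 77.2%. The pattern of a strong peak in replicate 1 without one in replicate 2 occurred in 21.3% of all thresholded peaks. The median rank of the 5 was 1491 in replicate 1, against 2279 for all thresholded peaks with an overlapping peak there. In replicate 2 the 3 with an overlapping peak had ranks of 5483, 5824 and 21077, against a median of 2219. No replicate 2 peak overlapped 2 of the 5 (lpr-4 and noah-1), while this was so for 166 of all 4530 (3.66%). Among the strongest promoter peaks of all bound genes, 80 of 2393 (3.34%) lacked one. With the strongest 4530 peaks of each replicate taken alone, replicate 1 marked 6 genes (the 5 and cutl-1), against 15.8% of all genes, and replicate 2 marked 1, cut-6, against 14.1%. The cause of the difference between the replicates was not tested.

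**Figure D4:**
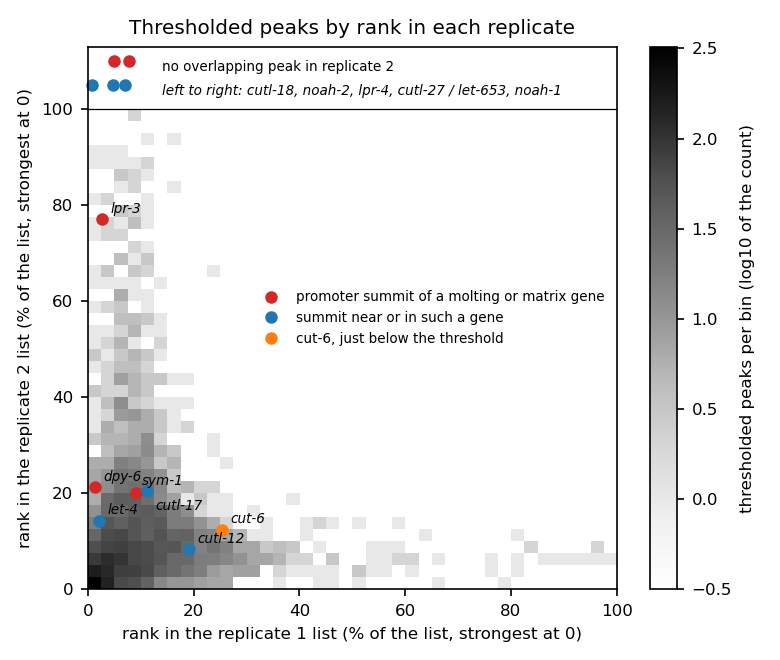
Thresholded peaks by the rank of the overlapping peak in replicate 1 (horizontal axis) and replicate 2 (vertical axis), each in percent of its list with the strongest at 0. Grey shades give the log10 count of peaks per bin, red points are promoter peaks of the molting and matrix genes, blue points those nearby or inside, and the orange point is cut-6. The strip at the top holds those with no overlapping peak in replicate 2. These are lpr-4, noah-1, noah-2, cutl-18 and the peak in a UTR exon of cutl-27, upstream of let-653.

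Beyond the promoters, 7 genes (12.7%) had a thresholded summit within 2000 bp of a start or inside the gene. Counting such summits outside the promoter in genes of any kind, 10.5% of all protein-coding genes had one, and 22.8% had one in the promoter, nearby or in the gene. The strongest was in an intron of cutl-18, 2681 bp after the start, with a signal of 90.6, rank 1035. Replicate 1 had a peak there of signal 81.9, rank 256, and replicate 2 had none. The let-4 and noah-2 summits are given above. At cutl-12 a summit of signal 45.3 lay 884 bp after a start, past the other end of the gene and in the promoter of T22C8.6, and it was the 1 such peak with the higher rank in replicate 2, 2261 against 5736. At cutl-17 a summit of signal 38.8 lay 1894 bp before the start and in the promoter of copb-2. The peak of signal 37.4 in a UTR exon of cutl-27 also lay 1932 bp before let-653, and it had a replicate 1 peak of signal 36.5 and no replicate 2 peak.

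With promoter, nearby and internal summits together there were 11 distinct peaks at these genes. Of these, 10 were among the strongest 4530 of replicate 1 and 2 among those of replicate 2, and 5 had no overlapping peak in replicate 2. The distance from a start to the nearest thresholded summit had a median of 7846 bp over the 55 genes, against 9050 bp over all protein-coding genes. It was under 2000 bp for 10 genes (18.2%, against 22.1%) and over 10 kb for 25 (45.5%, against 47.4%). The cuticlin and ZP genes had a median of 10330 bp and the lipocalin genes of 2868 bp.

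**Figure D5:**
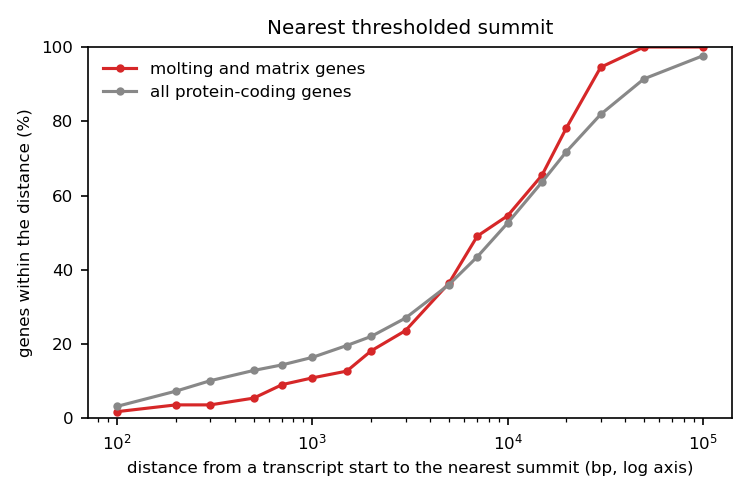
Cumulative share of genes, in percent, by the distance in bp (log axis) from a transcript start to the nearest thresholded summit, for the 55 molting and matrix genes and all protein-coding genes. The medians are 7846 bp and 9050 bp.

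The GATA letters were common in these promoters whether or not they were bound. From 1000 bp before to 200 bp after a start, WGATAR occurred in 50 of the 55 promoters (90.9%), against 94.5% of all protein-coding genes, with a median of 3 matches in each set. All 5 bound genes and 45 of the 50 others had a match. The most, 9, were at cutl-8, which had no promoter summit in any list, while cutl-1, with a pooled signal of 29.0, had 0, as did cutl-11, cutl-13, cutl-14 and cutl-27. TGATAA, a form of WGATAR, was in 42 of the 55 promoters (76.4%, against 75.5%).

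At the summits themselves matches were counted in windows shorter than the promoters, so these counts are set only against those at other summits. Of the 5 bound genes 1, sym-1, had WGATAR within 50 bp of the summit, with 2 matches, against 37.8% of all thresholded summits. Within 100 bp all 5 did, against 55.6%. TGATAA was within 50 bp at 0 of the 5, against 22.2%. Below the threshold, 8 of the 20 pooled promoter summits of these genes had WGATAR within 50 bp, against 22.9% of all 21978 pooled summits below it, which are not limited to promoters. Taking the strongest such summit of each of the 15 unbound genes that had one gave 7 (46.7%), with cut-6, cutl-23, mlt-9 and cut-1 among them. Promoter summits below the threshold were not counted over all genes, so neither count here has a like background. GAGAGA, a GA repeat, was within 50 bp at dpy-6 and lpr-3, against 24.6% of thresholded summits, and CTGCGT at 0 of the 5, against 12.0%. None of the thresholded summits nearby or inside these genes, outside their promoters, had WGATAR within 50 bp. A match is a run of letters and was not tested as a binding site.

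The other genes of molting and of the apical matrix were a list of 37 regulators, enzymes and matrix proteins. They were picked by name, with earlier results of these data known. Of the 37, 9 were bound (24.3%), against the background of 15.5%. Because of how the list was made, its share cannot stand for such genes as a class. Among the enzymes, cpz-1 and cpl-1, which encode cathepsins Z and L, had signals of 106 and 57.6. The cpl-1 summit lay 649 bp after its nearest start and was counted through another annotated start. The astacin gene dpy-31, a procollagen-processing protease, had 93.5, and mlt-7, a peroxidase gene, had 40.2. Among the regulators, nhr-23 and nhr-25, nuclear hormone receptors needed for molting, had 46.0 and 54.2, the transcription factor gene myrf-2 had 66.4, and peb-1, which encodes a DNA-binding protein, had 92.0. The kinase gene nekl-2 had 99.5, at a summit shared with the promoter of ZC581.7. Counting 1 summit for each of the 9 genes, 5 had WGATAR within 50 bp, against 37.8% of all thresholded summits, which are not limited to promoters. The further thresholded promoter summits of myrf-2 and nhr-23, which had 3 each, were not counted. In the relaxed lists 22 of the 37 had a pooled promoter summit (59.5%, against 41.9% of all genes) and 16 had one in both replicates (43.2%, against 29.4%). No test of the difference between the 2 lists of genes was made.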

How the data were processed

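ELT-3 ChIP-seq of whole L1 larvae was analysed from 4 peak lists on ce11. The signal of each peak is the authors' deposited value, from a comparison with a control and on a scale that is not stated. The −log10 q was deposited by the authors for each peak, and peaks were ranked by signal instead. Summit offsets (other deposited values) placed the summits. Aligner and peak caller were not given in the sources used here, and read depth is unknown. The lists on ce10 were not used.

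Summits were tied to protein-coding transcript starts of Ensembl release 115, and sequences were read from the RefSeq WBcel235 assembly, with Python 3.11.15, numpy 2.4.6, pandas 2.3.3 and matplotlib 3.10.9. Peaks of 2 lists overlapped where they shared at least 1 bp. The code was checked on summits planted in promoters that no other gene's promoter touches, and on motifs planted in random sequence of C and G only. It recovered 199 of 199 planted genes and 200 of 200 planted motifs. The check used the same promoter windows as the assignment, so it tests the code and not the rule. Shared promoters and chance motif matches were not simulated.

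The genes and lists were chosen with earlier results of these data known. Named were every gene with a thresholded promoter summit, the 5 highest in pooled signal without one, those with a thresholded summit nearby or inside, the genes picked by symbol, and the bound pathway genes. A few others are named beside a count and were chosen after their values were seen. Alternatives covered a stricter list, other promoter and motif windows, other rules for tying peaks to genes, each replicate alone and other overlaps. With 1 group there are no contrasts, and p-values are not given.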

Additional observations from a re-analysis of the deposited data

How the results depend on the processing

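The count of 5 bound genes was 2 in the 2265 strongest thresholded peaks (dpy-6 and lpr-3), or 3.64%, against 8.35% of all genes. It was 3 with promoters of 500 bp before to 100 bp after a start (dpy-6, lpr-3 and lpr-4), or 5.45%, against 12.4%. With 2000 bp before a start it was 9 (16.4%, against 19.8%). It stayed at 5 (9.09%) with the nearest start only, any base of the peak, or the most upstream start, against 11.9%, 16.5% and 14.3%. Replicate 2 alone gave 1 (1.82%, against 14.1%), and replicate 1 alone gave 6 (10.9%, against 15.8%). The 9 other pathway genes became 5 in the strongest peaks (13.5%, against 8.35%). They became 7 with the promoter of 500 bp before to 100 bp after a start (18.9%, against 12.4%). The most upstream start alone also gave 7 (18.9%, against 14.3%), and the nearest start only gave 8 (21.6%, against 11.9%). Any base of the peak gave 12 (32.4%, against 16.5%), and 2000 bp before a start gave 13 (35.1%, against 19.8%). Replicate 2 alone gave 9 (24.3%, against 14.1%), and replicate 1 alone gave 13 (35.1%, against 15.8%). The 20 genes with a relaxed promoter summit became 13 in the 13254 strongest pooled peaks (23.6%, against 30.1% of all genes), 12 with the narrower promoter (21.8%, against 32.0%) and 30 with 2000 bp before a start (54.5%, against 52.1%), the 1 setting where their share was above that of all genes, with 20 to 23 by single replicates. Of the 10 genes marked in both replicates, 8 had peaks overlapping by 1 bp or more and 7 by at least 50% of the shorter peak (12.7%, against 23.5%). The single bound summit with WGATAR within 50 bp became 5 within 100 bp and 0 for TGATAA. The 50 promoters with WGATAR became 30 in the window from 250 bp before to 50 bp after a start. In every setting for the bound genes the share stayed below that of all genes. No paired analysis was possible because there was 1 group. Peaks below each list's lowest signal are not seen, and without reads the depth behind a missing replicate 2 peak is unknown.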

Other observations

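Of the 15 molting and matrix genes on the X chromosome 4 were bound (26.7%), against 409 of all 2731 genes there, and 10 had a pooled promoter summit (66.7%, against 41.4%). These 15 include the lpr-3 to lpr-4 cluster and the let-4 and sym-1 pair, whose neighbours are not independent. On chromosomes II, III, IV and V, with 11, 5, 8 and 6 of these genes, 0 were bound, against 15.3%, 21.2%, 13.0% and 11.3% of all genes there. On chromosome II 1 of 11 had a pooled promoter summit, against 40.1%. On chromosome I 1 of 10 was bound, against 21.2%. The gene of the profiled factor, elt-3, had 2 thresholded promoter summits of its own, the stronger with a signal of 180. That peak stood at similar ranks in replicate 1 (88) and replicate 2 (73), unlike those of the 5 bound genes. It was also stronger, at rank 112 of the thresholded list, where the 5 ranked from 753 to 4407. The animals carry a transgene for ELT-3, and its part in the elt-3 peaks was not tested.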
